A study of Mus musculus with 55 samples.

Results

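Described here are 7 genes chosen by symbol, Hmgcs1, Sqle, Srebf2, Insig1, Idi1, Fdps and Lss, out of 24478 symbols in the deposited expression table; a symbol with several transcript entries was represented by the entry of highest mean level. Of the 7 genes, 6 had values above 0. All of them belong to cholesterol synthesis or its feedback control. None is a lipoprotein receptor, so uptake was covered here by a separate list of other genes. The study sorted 10 cell populations from C57B/L6 mouse liver, either normal or after partial hepatectomy (PH, surgical removal of part of the liver, after which the remainder regrows). RNA sequencing gave 55 libraries, 27 normal and 28 after PH, and the labels give neither the time after surgery nor a sham operation. Hepatocytes (HC) had 4 libraries in each condition. Normal liver and PH liver had, respectively, 4 and 2 libraries of clonal biliary epithelial cells (cBEC), 4 and 2 of biliary epithelial cells (BEC), 2 and 2 of non progenitor ducts (NPD) and 2 and 3 of endothelial cells (EC). They had 3 and 5 of sinusoidal endothelial cells (LSEC), 2 and 2 of blood cells, 2 and 2 of Thy1 cells, 2 and 3 of Kupffer cells (KC, liver macrophages) and 2 and 3 of hepatic stellate cells (HSC). The labels do not say whether libraries came from separate or pooled animals, so p-values measure the spread between these libraries only.

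Cells make cholesterol from acetyl-CoA through the mevalonate pathway and then through squalene and lanosterol, and the liver is a major site of this synthesis. When membrane cholesterol is low, the protein SCAP escorts the transcription factor SREBP-2, the product of Srebf2, from the endoplasmic reticulum to the Golgi, where proteases release its active part to switch on genes of sterol synthesis and uptake. INSIG proteins hold SCAP back when sterols are plentiful. Insig1 is itself an SREBP target, whereas Insig2 is much less dependent on SREBP.

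Because these genes are classic SREBP targets, the stretch before the gene start is shown for Insig1, the gene that changed in hepatocytes, for Lss, an enzyme with little net change there, and for Srebf2, the regulator itself. They come from RefSeq on GRCm38.p6, 5′ to 3′ on the gene's strand, from 250 bases before the gene start to just before the first annotated transcript base. Promoter entries matched 5 of the 7 genes.
Insig1, chr5:28071162-28071362: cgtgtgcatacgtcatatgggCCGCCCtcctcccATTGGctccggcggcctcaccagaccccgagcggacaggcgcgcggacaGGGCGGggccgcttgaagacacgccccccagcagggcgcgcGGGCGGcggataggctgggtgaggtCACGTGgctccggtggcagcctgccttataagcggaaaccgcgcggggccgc
Lss, chr10:76531355-76531564: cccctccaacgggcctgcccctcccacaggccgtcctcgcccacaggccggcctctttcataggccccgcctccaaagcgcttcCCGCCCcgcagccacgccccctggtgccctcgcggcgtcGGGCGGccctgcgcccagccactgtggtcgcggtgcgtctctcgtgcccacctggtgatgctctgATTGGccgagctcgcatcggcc
Srebf2, chr15:82147019-82147180: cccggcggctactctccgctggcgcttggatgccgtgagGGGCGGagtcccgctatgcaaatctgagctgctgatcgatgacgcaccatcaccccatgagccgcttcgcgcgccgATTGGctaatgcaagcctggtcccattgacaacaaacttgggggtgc
Capitals mark letters that a search found, on either strand, for GGGCGG (a GC box), CCAAT (the binding letters of the factor NF-Y), CACGTG (an E-box) and CACNCCAC (the core of a sterol element). In these stretches Insig1 held CCAAT on the opposite strand at position -216 and CACGTG at -101, counted from the gene start. CCAAT on the opposite strand also stood at -62 in Lss and at -135 in Srebf2. The core CACNCCAC was found in the full 300-base window of Insig1 at -9, outside the stretch shown, and of Hmgcs1 at -136. Of 32851 promoters of the same length, 37.4% held CCAAT, 35.7% GGGCGG, 7.15% CACGTG and 6.24% CACNCCAC. These are matches of letters only, and no measurement of binding accompanies them.

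In the build the authors named (mm9), the measured transcripts were Sqle NM_009270 (chr15:59146647-59162748, plus strand), Fdps NM_134469 (chr3:88897510-88905889, minus strand), Lss NM_146006 (chr10:75994350-76019884, plus strand) and Idi1 NM_145360 (chr13:8884852-8891642, plus strand). Srebf2 was NM_033218 (chr15:81977699-82035390, plus strand) and Insig1 was NM_153526 (chr5:28397952-28405202, plus strand). These spans are whole transcripts. Hmgcs1, which encodes the cytosolic enzyme that makes HMG-CoA, was listed at 0 in all 55 libraries. Its transcripts are placed at more than 1 locus in the table. Of 452 transcripts so placed, 86.1% were 0 in every library, against 6.88% of 34601 transcripts at a single locus, so its zeros are not read as absent expression. The cause of the zeros was not tested, and Hmgcs1 is left out below.

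Values are FPKM, read fragments scaled to transcript length and library size. FPKM summed to between 624726 and 1203197 per library, and the read depth is unknown. In a bulk population, fewer cells of a type and less RNA per cell cannot be told apart. The hepatocyte libraries fell into an unlabelled split, with normal 1 and 4 and PH 3 and 4 on one side, along a component holding 64.3% of the variance within groups. PH hepatocyte library 1 stood apart from the rest. Its 10 mitosis markers summed to 170.57 FPKM, against 5.45 to 8 in the other PH libraries and 8.31 to 14.62 in normal ones, while its hepatocyte markers summed to 52748 FPKM, within the normal range of 41953 to 65787. Kupffer markers summed to 0.07 to 4.4 FPKM in normal and 2.64 to 103.93 in PH hepatocyte libraries. The part of any of these in the results was not tested, and results in hepatocytes are given with and without library 1. Outside hepatocytes, exact zeros were met among widely detected genes in 0.383% of values for genes under 30 FPKM in hepatocytes and in 0.712% for genes between 30 and 300 FPKM. The share was 6.98% at 300 or more, and genes at 0 are called listed at 0. These shares do not cover genes seen in few populations. All 6 hepatocyte markers were listed at 0 in every library of normal and PH cBEC, BEC, NPD, EC and KC. The same held in normal LSEC, normal blood and PH Thy1 cells. In the remaining groups outside hepatocytes they summed to 23.8 FPKM at most. The cause of these zeros was not tested, which limits the later ranking of hepatocytes against other populations. Among the 47 libraries outside hepatocytes, Sqle was listed at 0 in 5, Idi1 in 4, Fdps in 3, Lss in 2, Insig1 in 1 and Srebf2 in none.

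In hepatocytes the feedback gene Insig1 fell after PH, and none of the other 5 measured genes passed the test. Insig1 dropped from 137 ± 6.78 FPKM (SD, n = 4) to 53.2 ± 24.6 (SD, n = 4). For the synthesis enzymes the PH libraries disagreed with each other. In PH library 1 Sqle, Fdps and Lss were far below normal, and in PH libraries 2 to 4 their means were above normal. Of 10029 genes tested in hepatocytes, 6.19% were called, at an adjusted p under 0.05 in limma.

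Sqle encodes squalene epoxidase, which adds oxygen to squalene and is a rate-limiting step of the later pathway. Its levels were 49.81, 28.9, 25.1 and 49.83 FPKM in normal hepatocytes and 13.19, 92.22, 66.93 and 59.12 after PH. The PH libraries 2 to 4 were thus above every normal library, and PH library 1 was below them all. The difference was 0.36 on the log2(FPKM + 1) scale (SE 0.53, limma adjusted p = 0.760).

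Fdps encodes farnesyl diphosphate synthase, whose product feeds both sterols and protein prenylation. It stood at 115.21, 44.65, 47.13 and 130.43 FPKM in normal libraries and 25.17, 104.59, 135.83 and 147.66 FPKM after PH. The groups overlapped, and normal libraries 2 and 3 were well below normal libraries 1 and 4, the same division as the split above. The log2 difference was 0.19 (SE 0.58, limma adjusted p = 0.893).

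Lss encodes lanosterol synthase, which closes the sterol rings. Normal libraries gave 14.55, 11.23, 10.33 and 13.2 FPKM and PH libraries 2.19, 21.25, 17.09 and 14.31. PH library 1 was the lowest of the 8 and PH library 2 the highest. The log2 difference was -0.16 (SE 0.53, limma adjusted p = 0.900) and turned to 0.47 (adjusted p = 0.211) without PH library 1.

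Idi1 encodes isopentenyl-diphosphate isomerase, an early step that makes the building blocks interchangeable, and was the lowest of the 4 measured enzymes. It was 1.75, 1.56, 1.42 and 0.82 FPKM in normal hepatocytes and 1.66, 4.59, 1.64 and 2.78 FPKM after PH. PH libraries 2 and 4 were above all normal libraries, and the other two lay among them. The log2 difference was 0.56 (SE 0.27, limma adjusted p = 0.266).

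Srebf2, the gene for SREBP-2, had 16.93, 12.73, 14.83 and 20.98 FPKM in normal hepatocytes and 4.15, 14.88, 13.89 and 12.0 FPKM after PH. Apart from PH library 1, the PH values lay in or just under the lower part of the normal range. The log2 difference was -0.61 (SE 0.35, limma adjusted p = 0.361).

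Insig1 encodes the sterol-sensing anchor that retains SCAP. Normal hepatocytes gave 142.91, 139.03, 138.97 and 127.26 FPKM and PH hepatocytes 30.65, 88.17, 45.97 and 48.11. All 4 PH libraries were below all 4 normal ones, a pattern that 13.2% of tested genes showed, while 4.41% of genes were called lower. The log2 difference was -1.45 (SE 0.29, limma adjusted p = 0.0181), and it was -1.22 (adjusted p = 0.0229) without PH library 1. Within the sides of the split it was -1.50 among normal 1 and 4 with PH 3 and 4, and -1.40 among the rest. The adjusted p rose above 0.05 when normal library 1, 2 or 3 or PH library 4 was left out, at 0.0549, 0.0540, 0.0516 and 0.0619.

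**Figure D1:**
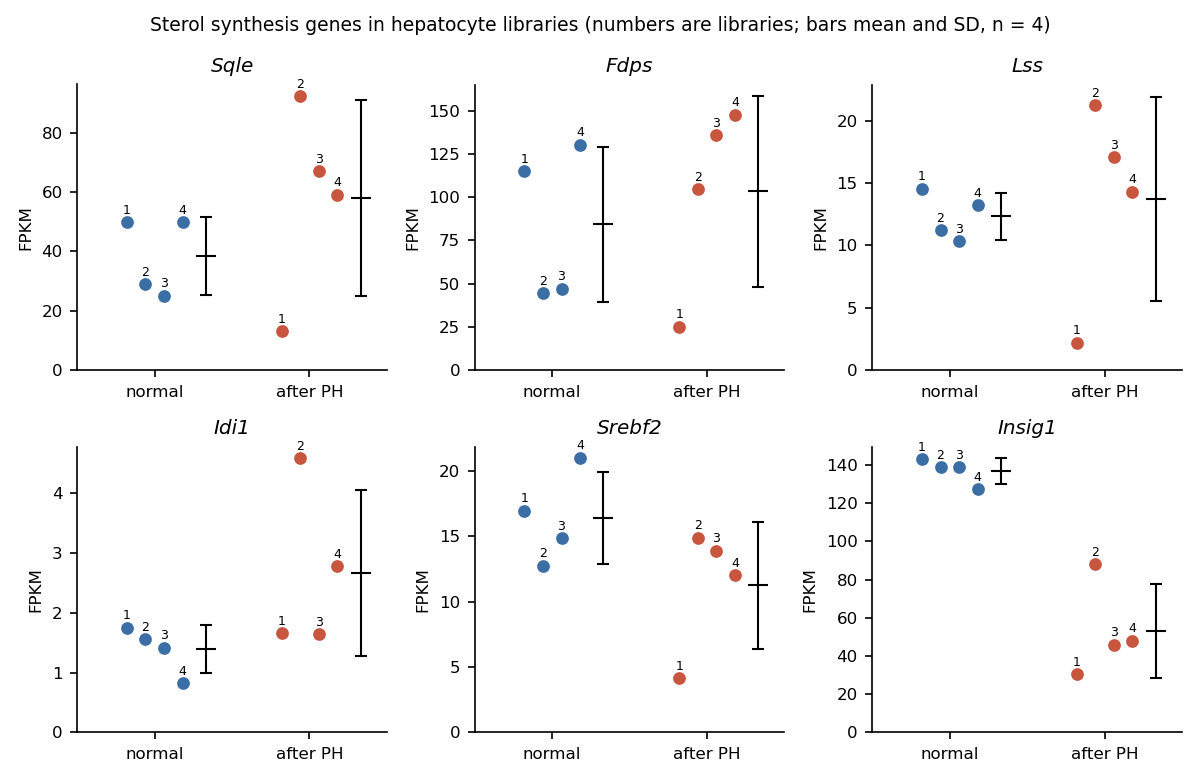
Level of each measured gene (FPKM, linear axes from 0) in the 4 normal and 4 PH hepatocyte libraries; points are libraries with their numbers, and bars show mean and SD. Insig1 is the gene whose groups do not overlap, with normal libraries at 127.26 to 142.91 and PH libraries at 30.65 to 88.17, and PH library 1 is the lowest PH point for every gene except Idi1.

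PH library 1 was the lowest of the PH hepatocyte libraries for 5 of the 6 measured genes, against 28.2% of all genes tested. The mean of PH libraries 2 to 4 was 8.01 times its value for Lss, 5.52 times for Sqle, 5.14 times for Fdps, 3.27 times for Srebf2, 1.98 times for Insig1 and 1.81 times for Idi1. Library 1 was also lowest for 12 of the 16 other synthesis genes tested, among them Dhcr7, the last step to cholesterol, at 6.86 times, and Mvd, which makes isopentenyl diphosphate, at 6.64 times. With this library the median log2 difference of the 6 genes was 0.01, against -0.07 over all genes tested. Without it the median was 0.58, against -0.11. The mean of libraries 2 to 4 was 1.89 times normal for Sqle. Sqle then differed by 0.94 (limma adjusted p = 0.113), Idi1 by 0.70 (0.201), Fdps by 0.76 (0.358) and Srebf2 by -0.23 (0.587), while Insig1 remained the 1 gene of the 6 called, with 6.79% of 10125 genes called. Sqle was then above normal in every PH library, as were 6.38% of genes, and Insig1 was below it in every one, as were 15.9%. A term for the split, chosen after seeing the data, together with leaving out library 1, called 4 of the 6: Sqle at 0.89 (limma adjusted p = 0.0401), Fdps at 0.59 (0.0408) and Idi1 at 0.77 (0.0254) were higher, and Insig1 at -1.16 (0.000989) was lower. Lss was at 0.47 (0.0603) and Srebf2 at -0.26 (0.240). That fit called 2946 of 10125 genes in all, against 621 of 10029 in the fit with neither change. The split was seen in the spread within groups of these same libraries, and a term for it removes part of that spread. Its calls are therefore not a separate test of these genes.

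**Figure D2:**
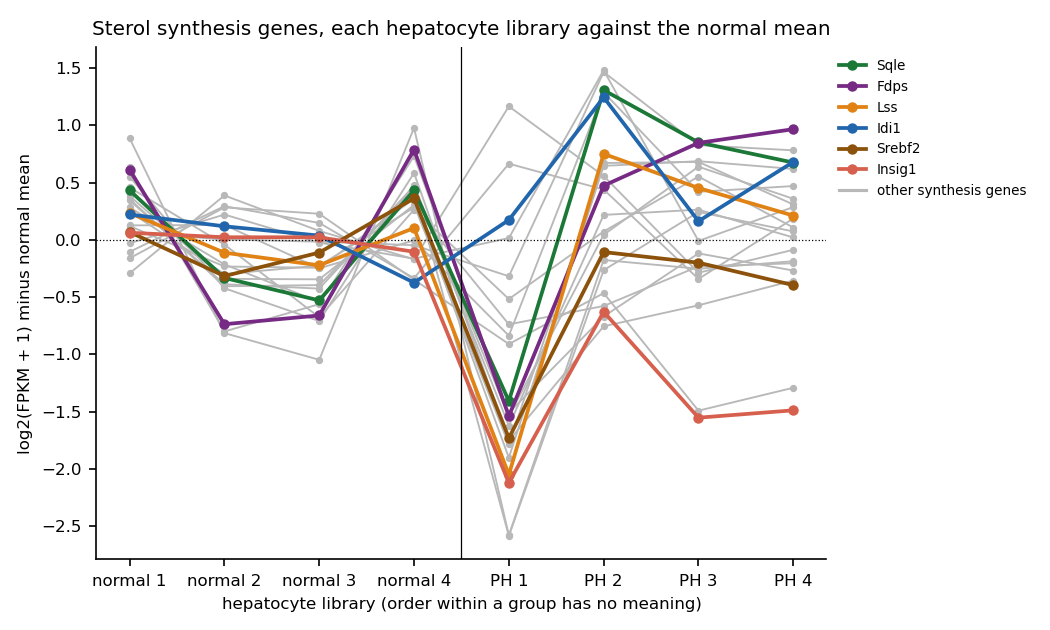
Each hepatocyte library's log2(FPKM + 1) minus the mean of the normal libraries, with the 6 measured genes in colour and the 16 other synthesis genes tested in grey. PH library 1 drops for most genes, and in PH libraries 2 to 4 the enzymes Sqle, Fdps, Lss and Idi1 lie above the normal mean while Insig1 and Srebf2 lie below it.

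Other genes of the pathway were taken from lists, with 17 further synthesis genes in the table, of which 16 were tested. None passed in limma in hepatocytes with all libraries and without the split term, and the list's median log2 difference was -0.08. An unadjusted p under 0.05 was met by 2157 of 10029 genes tested and by 1 of the 16. That gene was Sc5d, which adds a double bond to the sterol ring, at 223.05, 303.82, 292.35 and 195.83 FPKM in normal hepatocytes and 132.27, 180.39, 88.05 and 101.3 after PH (log2 difference -1.04, limma adjusted p = 0.0504). Its PH libraries were all below normal, as were those of 13.2% of genes tested. With the split term and all libraries, 4 of the 16 were called, Sc5d, Ebp, Pmvk and Tm7sf2, each lower. That fit called 2191 of 10029 genes in all. Without PH library 1 the median was 0.13 and 1 gene, Cyp51, which removes a methyl group from lanosterol, was called higher (1.02, limma adjusted p = 0.0214). Without it 3 of the 16, Cyp51 and Msmo1 among them, lay above normal in every PH library, and 1, Sc5d, lay below. Over all genes tested, 6.38% lay above and 15.9% below in this way. With the split term and without library 1, 7 of the 16 were called, Sc5d, Ebp and Tm7sf2 lower and the rest higher. Over all genes, 2946 of 10125 were called in that fit. Sc5d, Ebp, Pmvk, Tm7sf2, Cyp51 and Msmo1 are named after their values were seen. Cyp51 had 43.85, 42.05, 41.47 and 40.58 FPKM in normal hepatocytes and 33.45, 117.6, 75.19 and 72.84 after PH. Msmo1, a sterol demethylase, had 116.22, 116.53, 89.39 and 106.06 FPKM against 59.12, 261.39, 142.64 and 147.75. In both the first PH value is library 1 and the only one below normal.

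Among 10 other regulators of SREBP, 1 passed in hepatocytes, where 6.19% of all genes tested were called. Srebf1, which encodes SREBP-1, the form known for fatty acid synthesis, had 77.39, 80.86, 82.39 and 82.85 FPKM in normal hepatocytes and 14.49, 10.56, 18.72 and 16.61 after PH. It fell by 2.37 on the log2 scale (SE 0.21, limma adjusted p = 0.000231), and by 2.36 (adjusted p = 0.000681) without PH library 1. Scap and Insig2 are named after their values were seen, since their groups did not overlap. Scap had 48.12, 44.92, 47.15 and 62.53 FPKM against 7.56, 20.44, 27.01 and 27.78 after PH (log2 difference -1.39, limma adjusted p = 0.0549), and it was called lower without library 1 (-0.99, adjusted p = 0.0201). Insig2, the other INSIG gene, went the other way, at 169.34, 207.14, 174.65 and 141.5 FPKM against 368.93, 224.25, 223.15 and 264.45 (0.62, limma adjusted p = 0.151). Higher levels without overlap were seen for 4.99% of tested genes, and lower levels without overlap for 13.2%. Insig2 was above Insig1 in FPKM in each of the 8 hepatocyte libraries, by a wider margin in every PH library than in any normal one.

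Of 7 genes tested for lipoprotein uptake and lysosomal sterol release, none passed in limma. An unadjusted p under 0.05 was met by 1 of them, which was higher after PH, and by 2157 of 10029 genes tested. The list's median log2 difference was -0.46, or -0.23 without PH library 1, when again none passed. Among 8 tested genes of sterol efflux and esterification, 1 passed, with 6.19% of all genes tested called. That gene was Abcg8, part of the transporter that sends sterols into bile. It had 16.24, 31.24, 30.26 and 16.79 FPKM in normal hepatocytes and 5.68, 10.33, 10.35 and 9.05 after PH. All PH libraries were below all normal ones, as for 13.2% of genes tested. It fell by 1.29 on the log2 scale (SE 0.29, limma adjusted p = 0.0282), and by 1.11 (adjusted p = 0.0483) without PH library 1. Leaving out normal library 2 or 3 or PH library 2 or 4 raised the adjusted p to 0.0841, 0.0833, 0.0528 and 0.0770, and testing without the filter on low values raised it to 0.0642.

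Over the 8 hepatocyte libraries, Sqle, Fdps and Lss followed each other more closely than any of them followed Insig1 or Idi1. Pearson's r was 0.92 between Sqle and Lss, 0.91 between Sqle and Fdps and 0.82 between Fdps and Lss. Srebf2 had r = 0.86 with Lss and 0.74 with Insig1. Insig1 had r = 0.46 with Lss, 0.16 with Sqle, 0.12 with Fdps and -0.24 with Idi1. Idi1 had r = 0.49 with Sqle, 0.34 with Lss and 0.20 with Fdps. All of these points share libraries, and PH library 1 weighs on each of them. The genes most like the mean of the 6, by the same measure, included Nsdhl, a sterol dehydrogenase, at 0.964, Fam210b at 0.954, Paqr9 at 0.950, Alg2 and Rtfdc1 each at 0.946, Chpf2 at 0.945 and Fdft1, squalene synthase, at 0.940. The other genes of the closest 10 are not reported here. Of the 16 other synthesis genes 7 were within the closest 100 of 9475 genes, with a median r of 0.68 against -0.14 for all genes.

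Across normal liver the enzymes were highest in biliary cells or hepatocytes, and their regulators were ordered differently. Sqle averaged 179 FPKM in BEC and 127 in cBEC, and every cBEC library was above blood (44.6) and HC (38.4). Lss averaged 35.3 in BEC and 33.9 in cBEC, again above every library of HC (12.3) and blood (11.3). Fdps averaged 84.4 in HC, 64.7 in BEC, 47.6 in cBEC and 29.9 in blood, and neighbours in this order overlapped. Every blood library was above the next group, EC at 4.74, while both normal KC libraries were listed at 0. Idi1 was low throughout, at 3.65 in BEC, 2.58 in cBEC, 1.39 in HC, 1.35 in blood and below 1 FPKM elsewhere.

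Srebf2 was highest in BEC (125 FPKM) and cBEC (118), where every library was above NPD (81.4). It was 68.1 in blood and 46.6 in Thy1 cells, followed by EC (20.9), LSEC (19.2), KC (18.1), HC (16.4) and HSC (11.0), neighbours whose libraries overlapped. Insig1 had another order, with HC first at 137, then BEC (77.3) and cBEC (64.0), whose libraries were all above KC (17.8). The HC and BEC libraries overlapped, because BEC library 2 reached 141.44 FPKM. Blood, Thy1, NPD, LSEC and EC lay between 15.9 and 11.6, and HSC stood last at 0.467, with 1 library listed at 0. Normal hepatocytes thus combined the highest mean Insig1 of the 10 populations with the ninth mean Srebf2. After PH they had the highest mean Fdps (103 FPKM) and the lowest mean Srebf2 (11.2), although Srebf2 there overlapped with HSC (11.5). Without PH library 1 the hepatocyte mean of Srebf2 was 13.6 FPKM, above HSC and KC (12.5).

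**Figure D3:**
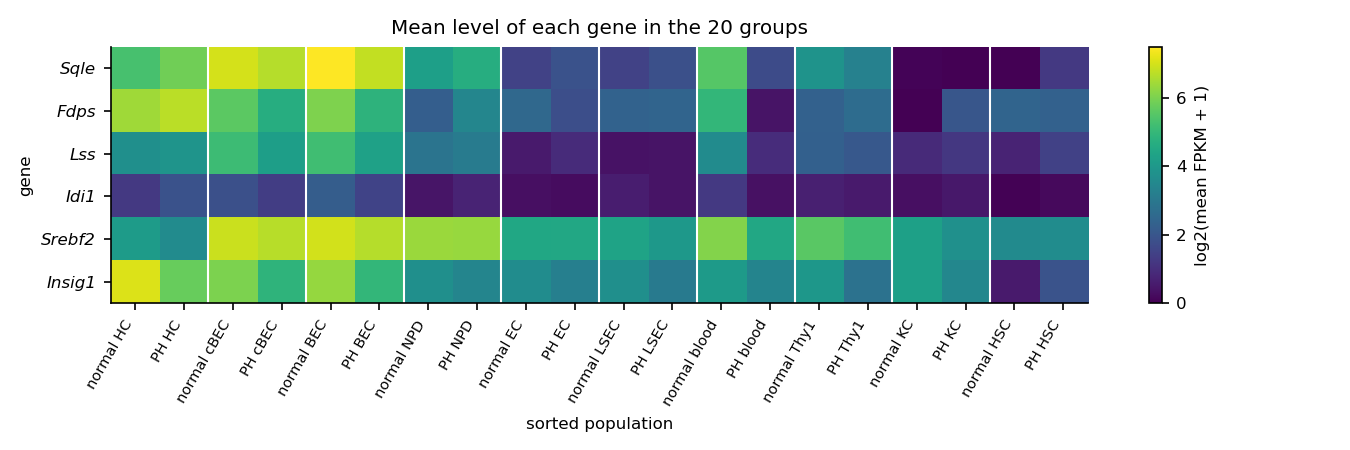
Mean level of the 6 measured genes, as log2(mean FPKM + 1) by colour, in each population before and after PH. Sqle, Lss and Srebf2 are brightest in BEC and cBEC, Insig1 in normal HC, and blood darkens for every enzyme after PH.

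Insig1 was lower after PH in the mean of 9 of the 10 populations, and in 7 of them every PH library was below every normal library. The 7 were HC, cBEC, BEC, EC, LSEC, blood and Thy1, in which 13.2%, 14.4%, 22.0%, 12.9%, 10.5%, 52.0% and 28.7% of tested genes showed the same. The median log2 difference over all genes tested was also negative in HC, cBEC, BEC, LSEC, blood, Thy1 and KC. It ran from -0.31 in blood to -0.03 in LSEC, and was positive in NPD, EC and HSC. How many of all genes were lower in as many populations was not counted. Each population has its own libraries, but the labels do not say whether several populations came from the same animals. The 7 comparisons are thus not known to be independent.

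In cBEC Insig1 was 102.23, 48.13, 43.56 and 62.0 FPKM in normal libraries and 27.4 and 29.66 after PH (log2 difference -1.06, limma adjusted p = 0.384). In BEC it was 49.25, 141.44, 70.92 and 47.67 FPKM against 31.92 and 28.2 (-1.19, limma adjusted p = 0.192). In LSEC it was 11.58, 11.72 and 13.74 FPKM against 7.09, 7.89, 6.95, 9.62 and 6.11. The 2 biliary groups were thus at about the same level after PH, and LSEC was the other population besides HC in which Insig1 passed the test. There it fell by 0.65 (SE 0.17, limma adjusted p = 0.0449), with 8.46% of LSEC genes called, but the call was lost in 11 of 15 alternatives. In cBEC, the PH library at 27.4 FPKM is library 1, the library tagged as normal.

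In Thy1 cells Insig1 was 13.26 and 16.26 FPKM in normal and 7.1 and 5.03 in PH libraries (log2 difference -1.17, limma adjusted p = 0.177). In blood it was 18.86 and 12.89 FPKM against 9.21 and 9.77 (-0.66, limma adjusted p = 0.0551). In EC it was 12.21 and 10.94 FPKM against 6.2, 8.59 and 10.34 (-0.45, limma adjusted p = 0.584). In these 3 populations the groups did not overlap and none passed. The KC libraries overlapped, at 24.11 and 11.47 FPKM against 9.06, 9.44 and 11.66 (-0.69, limma adjusted p = 0.148), and so did NPD at 17.92 and 6.91 against 11.09 and 7.99 (-0.23, limma adjusted p = 0.755). HSC was the exception, at 0 and 0.93 FPKM in normal and 2.31, 3.69 and 2.22 after PH (1.41, limma adjusted p = 0.611), above normal in every PH library, as were 14.7% of HSC genes. Within the Thy1 population, Thy1 markers summed to 1115 to 1295 FPKM in normal and 368 to 1034 in PH libraries. Stellate markers there summed to 2708 to 3373 FPKM against 520 to 1880, and endothelial markers to 714 to 873 against 935 to 1904. The part of these markers in the Thy1 difference was not tested.

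**Figure D4:**
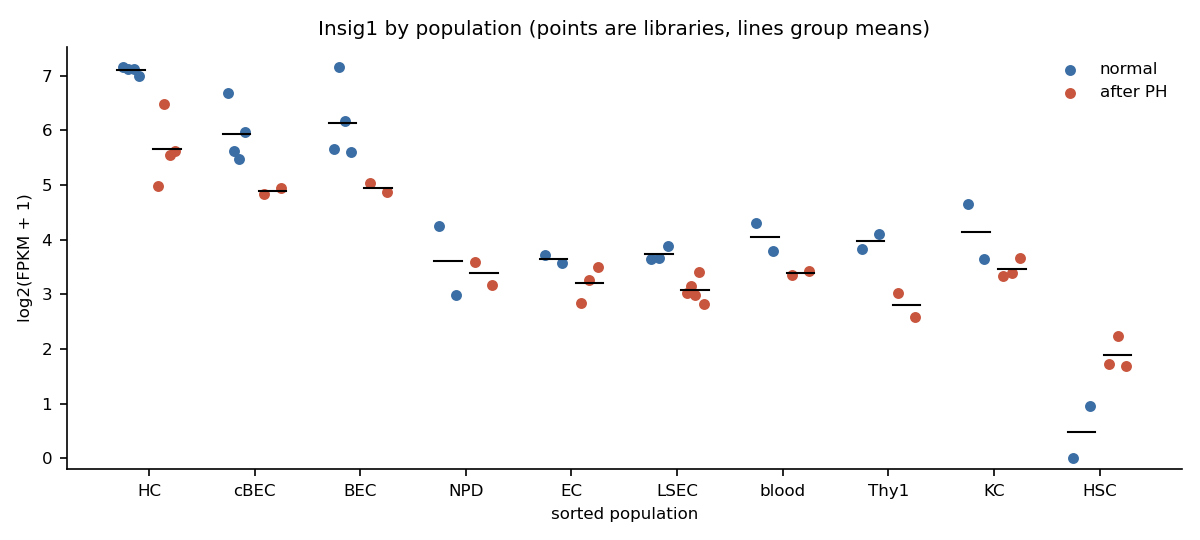
Insig1 level, as log2(FPKM + 1), in every library of the 10 populations, normal in blue and after PH in red, with lines at group means. PH points lie below all normal points in HC, cBEC, BEC, EC, LSEC, blood and Thy1, overlap with them in NPD and KC, and lie above them in HSC.

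Biliary cells had lower enzyme levels after PH without passing the test. In cBEC, Fdps was 36.32, 40.63, 41.36 and 72.02 FPKM in normal libraries and 20.67 and 28.36 after PH, and in BEC it was 46.05, 141.7, 40.43 and 30.48 against 26.61 and 28.53. Lss was 35.45, 28.6, 26.34 and 45.05 FPKM against 15.69 and 19.14 in cBEC, and 30.02, 50.5, 37.11 and 23.57 against 18.88 and 18.25 in BEC. In both populations the PH libraries lay below all normal ones for these enzymes, as they did for 14.4% of cBEC genes and 22.0% of BEC genes. The first PH value in cBEC is library 1, the library tagged as normal.
Sqle was also lower without overlap in cBEC, at 118.18 to 146.95 FPKM against 98.72 and 102.33, whereas in BEC normal libraries spanned 116.33 to 291.6 and PH libraries had 103.35 and 118.56. None of the 6 genes was called in limma in cBEC, where 0.0681% of all genes were called. There 3 of the 6 had an unadjusted p under 0.05, as had 1346 of 13225 genes tested. None was called in BEC, where 1.81% of genes were called. There 2 of the 6 had an unadjusted p under 0.05, as had 2097 of 12851 genes tested. Normal BEC library 2 was the highest of its group for all 6 genes. Kupffer markers summed to 53.4 to 231 FPKM in normal BEC and 0.183 to 3.28 in PH BEC, while biliary markers summed to 14618 to 21508 and 18355 to 19907; the part of these markers in the differences was not tested.

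NPD went the other way from BEC for the enzymes. Sqle was 21.31 and 14.4 FPKM in normal and 26.87 and 21.66 in PH libraries, Fdps was 1.31 and 6.21 against 9.85 and 9.69, and Lss was 5.95 and 6.68 against 7.98 and 7.52. PH libraries were above normal for all 3, as for 36.9% of tested genes. Stellate markers summed to 3236 to 3760 FPKM in normal NPD and 1257 to 1343 in PH NPD. Biliary markers summed to 2570 to 3779 FPKM against 3928 to 4682. The part of these markers in the differences was not tested. None of the 5 genes tested was called in limma, while 15.2% of all genes were called. An unadjusted p under 0.05 was met by 1, Fdps (log2 difference 1.40, limma adjusted p = 0.147), and by 4426 of 13024 genes.

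In blood every measured enzyme was lower after PH. Fdps was 41.2 and 18.61 FPKM in normal and 0.05 and 0.55 in PH libraries, and it fell by 4.49 on the log2 scale (limma adjusted p = 0.00179). Sqle was 58.55 and 30.66 FPKM against 2.01 and 2.57 and fell by 3.73 (limma adjusted p = 0.00161). Lss was 13.98 and 8.69 FPKM against 0.79 and 1.08 and fell by 2.64 (limma adjusted p = 0.00216). Srebf2 was 81.0 and 55.15 FPKM against 20.64 and 22.26 and fell by 1.60 (limma adjusted p = 0.00415), and Idi1, at 1.64 and 1.06 FPKM against 0.16 and 0.34, fell by 0.90 (limma adjusted p = 0.0154). Thus 5 of the 6 genes were called lower, against 39.7% of all genes, and 64.0% of genes were called in either direction. Insig1 was lower too but was not called (limma adjusted p = 0.0551). Without normal blood library 1, 2 of the 6 were called, and calls over all genes fell from 8199 of 12819 to 1262 of 13303. Blood-cell markers summed to 4061 to 4222 FPKM in normal blood and 522 to 981 in PH blood, and Kupffer markers to 401 to 677 against 9030 to 15843, so the labelled population differed in its markers between conditions. The part of that change in these falls was not tested.

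In the remaining populations no enzyme was called. EC Sqle was 2.35 and 1.26 FPKM in normal and 3.12, 3.13 and 1.87 in PH libraries, and LSEC Sqle lay between 0.01 and 3.93 in both conditions. KC Sqle was at or under 0.09 FPKM in every library, and both normal HSC libraries were listed at 0 against 0.15, 2.47 and 1.52 after PH. In KC, Fdps was listed at 0 in both normal libraries and in 1 PH library, with 4.08 and 4.99 FPKM in the other two. Srebf2 in KC was 18.63 and 17.58 FPKM against 11.46, 10.55 and 15.49 (log2 difference -0.52, limma adjusted p = 0.0877), below normal in every PH library, as were 34.7% of KC genes. Kupffer markers summed to 10432 to 11711 FPKM in normal KC and 26266 to 27539 in PH KC. Sinusoidal endothelial markers there summed to 2651 to 3658 FPKM against 248 to 432. The part of these markers in the differences was not tested. In limma, 0 of the 4 genes tested were called in EC (none at an unadjusted p under 0.05), 0 of 5 in Thy1 (1), 0 of 4 in KC (1) and 0 of 5 in HSC (0). Of all genes, 0.0249%, 0.00747%, 36.8% and 0.00853% were called there. An unadjusted p under 0.05 was met by 1297 of 12064 genes in EC and 2417 of 13389 in Thy1. In KC it was met by 5658 of 11835 and in HSC by 995 of 11729.

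Whether the response to PH differed between the 10 populations was tested with limma's F test in a single fit of all 20 groups. It was called for Sqle (adjusted p = 0.000391), Insig1 (0.00113), Fdps (0.00372) and Lss (0.00390), and not for Idi1 (0.0791) or Srebf2 (0.0894). Without PH hepatocyte library 1, Srebf2 was called as well (0.0149). Of 16527 genes, 47.8% were called. For Sqle the log2 differences ran from -3.73 in blood to 1.11 in HSC, and for Insig1 from -1.45 in HC to 1.41 in HSC. Blood is the population whose markers differed between conditions, and outside it the lowest Sqle difference was -0.60, in BEC. The HSC differences start from low values, with normal libraries at 0 for Sqle and at 0 and 0.93 FPKM for Insig1. The part of these features in the F test was not tested.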

How the data were processed

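The members and gene lists were chosen with earlier results of these data known; the lists do not hold every gene of the pathway, and some genes are not reported here. Populations sorted by FACS into TRIzol were sequenced, per the labels. The values are FPKM made and deposited by the authors, going by the name of the table. The submitters' processing notes name CASAVA 1.8.2, Bowtie 1.0.0 and mm9, without their roles; the counting tool is not given in the sources used here, and depth is unknown. All 55 columns matched a sample title, with 0 others left over. Replicates have separate columns, per the file headers. PH cBEC library 1 is tagged as normal in its treatment label, against its title, which was followed.

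PH was compared with normal within each population by limma 3.58.1 (R 4.3.3), two-sided, on log2(FPKM + 1), with trended and robust variances and Benjamini-Hochberg adjustment over all tested genes; this scale understates changes of low genes. Genes needed at least 1 FPKM in as many libraries as the smaller group has. In simulated data for the HC design, 173 of 200 genes changed by 2 (log2) were recovered among 10029. The simulated noise was independent between libraries and held no split, and every measured member differed by less than 2 in HC. The share recovered thus does not apply to differences of the members' size. Alternatives were a pseudocount of 0.1, no filter, quantile and upper-quartile scaling, the mean over a symbol's transcripts, a replicate block, a single fit of all 20 groups and leaving out each library. A term for the hepatocyte split, alone or with PH library 1 left out, was chosen after seeing the data. Named by rule were the 7 members, list genes that passed in HC, and the 10 genes most like the members, of which 7 are reported; other list genes were named after their values were seen. Transcript starts are counted from 1. Promoters come from another build, GRCm38.p6, and were joined by symbol. Figures used Python 3.11.15 and matplotlib 3.10.9.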

Additional observations from a re-analysis of the deposited data

Results flagged for a closer look

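Of 30 sets of 4 or 5 libraries examined for these genes, 3 had a library far from the rest of its group, where chance gives about 5 percent of sets. Sqle was 146.95 FPKM in normal cBEC library 4, while the other normal cBEC libraries lay between 118.18 and 121.58. Fdps was 72.02 FPKM in the same library, against 36.32 to 41.36 in the others. Fdps was 141.7 FPKM in normal BEC library 2, against 30.48 to 46.05 in the others.

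The response to PH differed between the 10 populations in limma's F test for Sqle (adjusted p = 0.000391), Insig1 (0.00113), Fdps (0.00372) and Lss (0.00390), in a fit that called 47.8% of genes.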

How the results depend on the processing

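Depth is unknown, so counting error cannot be given. Most groups hold 2 or 3 libraries, and a PH or normal group left with 1 library is assumed to vary like the others. In HC, Insig1 stayed negative in all 17 alternatives (-1.72 to -1.16) and lost its call in 4, all single-library omissions. In HC, 1 of the 6 genes was called, 0 to 1 on leaving out a library, and 4 with the split term and PH library 1 left out. Of all genes, 621 were called there, against 302 with the replicate block, 1364 in the single fit and 2191 with the split term. The count was 2946 with the split term and PH library 1 left out, and 302 to 687 on leaving out a library without that term. The log2 difference of Fdps in HC ranged from -0.074 to 0.76 on leaving out a library and that of Lss from -0.46 to 0.47, with 0.47 also under the split term without PH library 1; the cause was not tested. That of Insig1 in NPD ranged from -0.86 to 0.40 on leaving out a library.

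In LSEC, the count of 1 became 0 without the filter, with quantile or upper-quartile scaling, with the replicate block and in the single fit, and 0 to 1 on leaving out a library (1 without PH library 2 or 4). On leaving out a library, the count of 5 in blood became 2 to 5, with 2 without normal library 1. In NPD 0 became 0 to 1, with 1 without normal library 2, and in KC 0 to 2, with 2 without PH library 3 and 1 without normal library 2. The single fit called 1 gene in HSC. As deviations from their group means, same-numbered normal and PH HC libraries correlated at -0.32, 0.57, -0.67 and 0.44. The split holds much of that spread, so these values cannot decide whether replicate numbers pair the libraries. With the replicate block, the number called was 3 in BEC, 1 in NPD, 2 in KC and 5 for the difference of responses, where Idi1 was added (adjusted p = 0.0302).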
